A study of Mus musculus with 11 samples.

Results

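The 8 genes described here, Slc1a5, Ercc2, Cyp2s1, Med29, Mrps12, Hnrnpl, Aplp1 and Nudt19, lie on mouse chromosome 7, the chromosome that also carries Apoe. They were picked by name because an earlier comparison of the same arrays had placed each of them past the threshold between the genotypes. Their differences, adjusted p-values and calls below, also in fits to some of these arrays, are therefore descriptions and carry no test. Every probe set annotated to 1 of these genes alone was taken, which gave 11 probe sets of 22626, and the genes are 8 of the 8433 tested. Of the 11 probe sets 10 passed the filter on low signal. To pass, a probe set had to exceed the 40th percentile of the pooled values on 5 or more arrays. Because of that choice, medians or counts over the 8 genes are not independent evidence of a shift.

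RNA came from sympathetic ganglia, the relay stations of the noradrenergic nervous system, that were cut from fresh-frozen tissue by laser capture. The mice were males aged 78 weeks, kept on normal chow. Of 11 arrays, 6 came from apoE-/- mice (called Apoe-deficient) and 5 from wild-type mice, both of the strain labelled C57BL. The labels give the strain no more closely than that, do not tie arrays to animals and name no other allele or agent, so arrays that share an animal would make the p-values printed below for other genes too small, and otherwise those p-values measure the spread between samples, which may be technical. Precision is limited by how few arrays there are. In bulk tissue, fewer cells of a type and less RNA per cell cannot be told apart.

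Apolipoprotein E carries lipids between cells, and mice without it become hypercholesterolaemic and atherosclerotic. A knockout allele is usually made in embryonic stem cells of one strain and then crossed into another, and genes close to the targeted one travel with it through those crosses. Genes that sit near each other on a chromosome need not share any function, and these 8 do not. Ercc2, Med29 and Hnrnpl serve transcription and RNA processing, Mrps12 belongs to the mitochondrial ribosome, Slc1a5, Nudt19 and Cyp2s1 serve transport and metabolism, and Aplp1 encodes a membrane protein of neurons. The Apoe genotype and the alleles of genes linked to it cannot be told apart in this design, and no strain genotype was used here.

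The arrays matched their labels. Apoe had deposited signals from 7.2 to 268.2 (median 145.6) in Apoe-deficient ganglia, against 19649.2, 15977.9, 11830.3, 13024 and 15292.8 in wild-type ganglia, and its log2 difference was -6.75 (SE 0.44). The tissue carried its defining transcripts: Th, the rate-limiting enzyme of noradrenaline synthesis, ran from 9686.1 to 16933.3 in Apoe-deficient and from 12518.2 to 18058.1 in wild-type arrays, and Dbh, the last enzyme of that pathway, from 7993 to 15447.8 in Apoe-deficient and from 12541.9 to 18660.1 in wild-type arrays. Other features moved with genotype. Of 13 tested macrophage markers 9 rose (limma, Benjamini-Hochberg adjusted p below 0.05) and 0 fell, with a summed signal of 11693 to 16764 in Apoe-deficient arrays against 6906.5 to 8777.6 in wild-type arrays; 4 of 6 mast cell markers and 2 of 5 B and plasma cell markers rose too. Of 8 fibroblast markers 1 rose, the matricellular protein gene Postn (1.10, SE 0.18, adjusted p = 0.0059), 4 had an unadjusted p below 0.05, and all 8 were above 0 with a median of 0.55. Their summed signal was 12065 to 18277 in Apoe-deficient and 9144 to 13437 in wild-type arrays. Adipocyte markers summed to between 4287.8 and 28028 in Apoe-deficient arrays and between 14460 and 40681 in wild-type arrays, with 0 of 9 past the threshold and 3 at an unadjusted p below 0.05. All 9 were below 0, with a median of -0.77 against -0.04 for all genes. Of 17 noradrenergic neuron markers 0 passed, with sums of 85970 to 164442 in Apoe-deficient and 119800 to 168589 in wild-type arrays. In the limma fit 4 of the 17 had an unadjusted p below 0.05 and 12 were below 0, with a median of -0.05. Of 9 glial markers 0 passed. The bacterial hybridisation controls added to every array fell into 3 levels. The low level held Apoe-deficient replicates 2, 3 and 4 and no wild-type array, so at that level control signal and genotype cannot be told apart. The same 3 arrays were lowest in the poly-A control signals, at 246.6, 798.8 and 604.6, against at least 1694 in every other array. The middle level held 1 Apoe-deficient array (replicate 5) beside wild-type replicates 3, 4 and 5. The high level held 2 Apoe-deficient arrays (replicates 1 and 6) beside wild-type replicates 1 and 2. The part of any of these features in the results was not tested, and values with and without the 3 low-level arrays stand beside the results.

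Of the 8 genes, 6 were lower and 2 were higher in Apoe-deficient ganglia. All 8 were past the threshold (limma, adjusted p below 0.05), which is how they had been chosen, while 1.93% of all genes tested were past it, 0.676% lower and 1.26% higher. On the normalised scale 7 of the 8 had groups without overlap, as had 2.96% of all genes (1.51% with Apoe-deficient lower and 1.46% with Apoe-deficient higher). The 2 largest differences were in Slc1a5 and Nudt19, whose mean signals in Apoe-deficient ganglia were 37.8% and 38.8% of those in wild-type ganglia. The smallest was in Aplp1, at 69.9%. Log2 differences are on the log2(signal + 16) scale after quantile normalisation, Apoe-deficient minus wild-type, which understates the change of weakly expressed genes. The gene of highest adjusted p among the 8 was Cyp2s1 (0.0391), and the nearest genes outside the threshold between Slc1a5 and Nudt19 were Ech1 (0.0534) and Axl (0.0637).

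**Figure D1:**
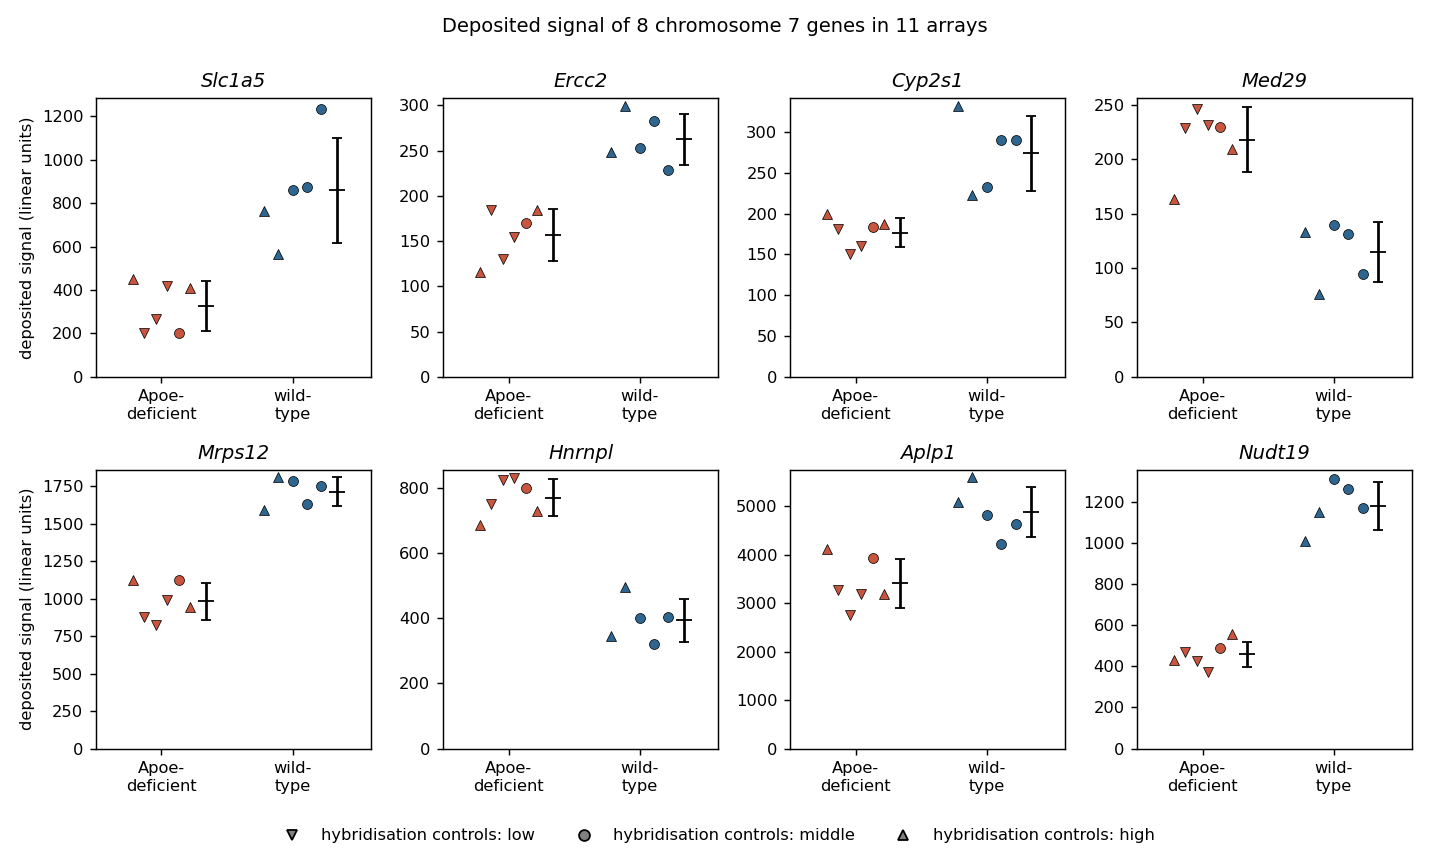
Deposited linear signal (y axis, from 0) of each gene's representative probe set in 6 Apoe-deficient (left) and 5 wild-type (right) arrays. Symbols give the level of the hybridisation controls and bars the mean ± SD. In deposited signal the groups do not overlap for any of the 8 genes, and the low-level arrays (downward triangles) do not stand apart from the rest of their group in Hnrnpl, with signals of 749.9, 823 and 829.7 among 687.4 to 829.7. The genes were chosen by this contrast, and the share of all genes without overlap in deposited signal was not counted.

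Ercc2 encodes XPD, the helicase of the transcription factor TFIIH, which opens DNA both at promoters and in nucleotide excision repair. Its signal ran from 116 to 184.5 (median 162.3) in Apoe-deficient ganglia, against 248.5, 298.8, 253, 282.9 and 229 in wild-type ganglia. All Apoe-deficient arrays lay below the lowest wild-type array. Its log2 difference was -0.69 (SE 0.14), and it was -0.72 without the 3 low-level arrays, where its call was lost (limma adjusted p = 0.152). The call was also lost without wild-type replicate 2, with the control level as a blocking term and within the high level. Of 7 further TFIIH genes tested 0 passed the threshold in the limma fit and 1 had an unadjusted p below 0.05, with a median of 0.05 against -0.04 for all genes. Ccnh, the cyclin of the TFIIH kinase, differed by 0.38 (SE 0.17, adjusted p = 0.233), Ercc3, the second helicase, by -0.28 (SE 0.13, adjusted p = 0.255), and Gtf2h1, a core subunit that also sits on chromosome 7, by 0.05. Of 13 other excision repair genes 0 passed and 3 had an unadjusted p below 0.05. Rpa2, a single-strand binding subunit (0.38, adjusted p = 0.170), and the centrin gene Cetn2 (0.28, adjusted p = 0.228) had the smallest p. Ercc1, the repair endonuclease subunit and nearest tested gene before Ercc2 on the chromosome, differed by -0.20 (adjusted p = 0.353), and the DNA ligase gene Lig1, also on chromosome 7, by -0.27.

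Med29 encodes a subunit of Mediator, the complex that links transcription factors to RNA polymerase II. Its stronger probe set ran from 163.2 to 246.8 (median 229.5) in Apoe-deficient ganglia, against 133.5, 76.6, 139.3, 131.3 and 94.3 in wild-type ganglia. All 6 Apoe-deficient arrays were above all 5 wild-type arrays, and the log2 difference was 0.89 (SE 0.18). This probe set exceeded the filter value in 9 of 11 arrays, the exceptions being wild-type replicates 2 and 5 (6.47 and 6.69). The wild-type arrays alone would not have met the required 5, so Med29 was tested only through the group where it is high. The other probe set gave the opposite sign at the edge of detection: signals of 4.5 to 13.8 in Apoe-deficient and 5.5 to 36.4 in wild-type ganglia, a log2 difference of -0.31 (SE 0.19), above the filter value in 0 of 11 arrays. The mean of both probe sets gave 0.29, which did not pass the threshold, so the direction of Med29 rests on 1 probe set. Leaving out Apoe-deficient replicate 3 ended its call, as did leaving out wild-type replicate 5, and the call was lost without the 3 low-level arrays too, at 0.74 (limma adjusted p = 0.281). Among 27 other Mediator genes 0 passed in the limma fit and 2 had an unadjusted p below 0.05, with a median of -0.05. Med16 (-0.38, SE 0.15, adjusted p = 0.175) and Med10 (-0.32, SE 0.14, adjusted p = 0.228) had the smallest p, and Med25, the other chromosome 7 subunit tested, differed by -0.33 (adjusted p = 0.293).

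Hnrnpl encodes an RNA-binding protein that sits on CA-rich stretches of pre-mRNA and regulates splicing. Its signal ran from 687.4 to 829.7 (median 775.4) in Apoe-deficient ganglia, against 346.5, 494.7, 400, 321.9 and 402.3 in wild-type ganglia. The mean was 1.96 times the wild-type mean, and the lowest Apoe-deficient array stood well clear of the highest wild-type array. The log2 difference was 0.94 (SE 0.11), was 0.90 without the 3 low-level arrays and ranged from 0.89 to 1.03 when each array was left out in turn. Hnrnpl was past the threshold in each of those fits. Among 27 other genes of the heterogeneous nuclear ribonucleoprotein (hnRNP) and polypyrimidine-tract families 0 passed in the limma fit and 4 had an unadjusted p below 0.05, with a median of 0.13 against -0.04 for all genes, and 20 of them were above 0. The poly(C)-binding genes Pcbp3 (-0.41, adjusted p = 0.119) and Pcbp4 (-0.39, adjusted p = 0.140) had the smallest p, in the direction opposite to Hnrnpl. Hnrnpul1, on chromosome 7, differed by -0.17.

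Mrps12 encodes the protein of the mitochondrial small ribosomal subunit that lies at the decoding site. Its signal ran from 821.8 to 1127.4 (median 968.7) in Apoe-deficient ganglia, against 1591.6, 1810, 1782.9, 1628.3 and 1749.3 in wild-type ganglia. The Apoe-deficient arrays averaged 981.7 ± 125 (SD, n = 6) and the wild-type arrays 1712 ± 96.9 (SD, n = 5), and the groups did not overlap. The log2 difference was -0.82 (SE 0.11), and -0.67 (SE 0.11) without the 3 low-level arrays, where the gene was still past the threshold. The only Mrps12 probe set, like the brighter one of Aplp1, carries the suffix by which the array's maker marks probes that can match transcripts of more than 1 gene. Of 29 other small subunit genes 0 passed in the limma fit and 2 had an unadjusted p below 0.05, with a median of -0.03. Mrps21 (-0.26, SE 0.09, adjusted p = 0.157) and Mrps36 (-0.33, SE 0.13, adjusted p = 0.177) had the smallest p, and Mrps11, also on chromosome 7, differed by 0.29 (SE 0.19).

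Mrps12 and Med29 each start head to head with a neighbouring gene, so the stretch between the starts is shared by both. Mrps12 faces Sars2, the seryl-tRNA synthetase of mitochondria, across 135 bases, and Med29 faces Paf1, a factor that travels with elongating RNA polymerase II, across 305 bases. The first stretch whole and the 250 bases of the second next to Med29 are printed below. Any part of these bases in the values of either gene was not tested. Both stretches are from RefSeq, build GRCm38.p6, with the letters CCAAT or their reverse complement ATTGG in capitals. They are read on the minus strand from the neighbour's side towards Mrps12 or Med29. The label before each stretch names the pair and not the direction of reading. The first lies at chr7:28741822-28741956 and the second at chr7:28392691-28392940.
Mrps12 to Sars2: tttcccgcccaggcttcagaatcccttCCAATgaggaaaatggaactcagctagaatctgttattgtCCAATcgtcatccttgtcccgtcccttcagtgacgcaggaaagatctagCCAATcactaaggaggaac
Med29 to Paf1: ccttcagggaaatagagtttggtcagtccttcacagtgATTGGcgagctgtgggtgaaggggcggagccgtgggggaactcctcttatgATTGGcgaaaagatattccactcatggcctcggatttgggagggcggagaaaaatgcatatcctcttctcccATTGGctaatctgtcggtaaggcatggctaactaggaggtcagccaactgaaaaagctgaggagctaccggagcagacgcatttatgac
The letters in capitals occur 3 times in each of these stretches.

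Sars2 ran from 77.1 to 166.4 (median 144.7) in Apoe-deficient ganglia, against 275.6, 283.6, 162.1, 191.3 and 258.4 in wild-type ganglia. Its groups overlapped in wild-type replicate 3, and its log2 difference was -0.70 (SE 0.18, limma adjusted p = 0.064), on the same side as Mrps12 without passing the threshold. Paf1 ran from 139.3 to 196.4 in Apoe-deficient and from 140.8 to 244 in wild-type ganglia, with a log2 difference of -0.05 (SE 0.14, adjusted p = 0.860), while Med29 was higher. After the group means were taken out, the Pearson r over 11 arrays was 0.48 between Mrps12 and Sars2 and -0.69 between Med29 and Paf1. These correlations share array depth and tissue make-up and are descriptions. In the 250 bases before the start, the letters CCAAT, on either strand, occurred 4 times for Mrps12, whose window reaches past the printed stretch, and 4 times for Hnrnpl, 3 times for Med29 and for Ercc2, and 0 times for Cyp2s1, Nudt19 and Aplp1. Promoter entries existed for 7 of the 8 genes, Slc1a5 not among them. Of 32851 promoter windows of the same length 33.8% held at least 1 such match, 2.79% at least 3 and 0.84% at least 4. The letters GGGCGG (either strand) were found in 32.7% of windows, at least 2 times in 16.7% and at least 3 times in 8.47%. They occurred 3 times for Cyp2s1, 2 times for Med29, 1 time each for Ercc2, Mrps12, Hnrnpl and Aplp1, and 0 times for Nudt19. The letters TATAAA and CACGTG (either strand), found in 12.4% and 6.02% of windows, occurred before 0 of the 7 genes.

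Slc1a5 encodes ASCT2, a sodium-dependent exchanger that brings glutamine and other neutral amino acids into cells. Its signal ran from 201.2 to 451.6 (median 338.65) in Apoe-deficient ganglia, against 764.4, 564.1, 859, 876.1 and 1232.5 in wild-type ganglia. Both groups were widely spread, yet the highest Apoe-deficient array lay below the lowest wild-type array. The log2 difference was -1.40 (SE 0.24). It varied with the arrays compared: -2.24 between the single Apoe-deficient and the 3 wild-type arrays of the middle control level, and -0.62 between 2 arrays and 2 arrays of the high level. It was -1.29 (SE 0.28) without the 3 low-level arrays, where its call was lost (limma adjusted p above the threshold). Of 16 other genes of neutral amino acid transport and glutamine use 0 passed and 2 had an unadjusted p below 0.05, with a median of -0.14 against -0.04 for all genes. Slc7a7 (-0.33, SE 0.10, adjusted p = 0.116) and Slc6a17 (-0.38, SE 0.16, adjusted p = 0.211) had the smallest p in the limma fit, and the exchanger gene Slc7a10, on chromosome 7, differed by -0.46 (adjusted p = 0.262).

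Nudt19 encodes a peroxisomal Nudix hydrolase that splits coenzyme A, studied mostly in mouse kidney. Its stronger probe set ran from 373.8 to 557.3 (median 450.2) in Apoe-deficient ganglia, against 1008.6, 1147.8, 1308.4, 1264.4 and 1171.5 in wild-type ganglia. The gap between the groups, 0.87 on the log2 scale, was wider than in any of the other 7 genes. In the fit of all genes it differed by -1.35 (SE 0.11), and by -1.23 (SE 0.12) without the 3 low-level arrays. It ranged from -1.41 to -1.30 when each array was left out in turn and was past the threshold each time. Among 21 other Nudix and coenzyme A genes 0 passed in the limma fit and 3 had an unadjusted p below 0.05, with a median of -0.15. Vnn3 (-0.58, SE 0.17, adjusted p = 0.101) and Nudt4, a diphosphoinositol phosphohydrolase (0.43, SE 0.13, adjusted p = 0.108), had the smallest p.

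The second Nudt19 probe set showed a much smaller difference. Its signal ran from 307.2 to 414.9 (median 380.35) in Apoe-deficient ganglia, against 472.3, 462, 594.5, 464.3 and 401.6 in wild-type ganglia. Only wild-type replicate 5 fell within the Apoe-deficient range. By log2 difference this was -0.35 (SE 0.12), so the stronger probe set moved 3.86 times as far. Both probe sets read the same RNA of the same array, so the distance between them can be followed array by array. That distance was 0.04 to 0.59 in Apoe-deficient arrays and 1.10 to 1.54 in wild-type arrays, with no overlap. Nudt19 was chosen by the difference of its stronger probe set, so part of this separation follows from that choice. How often the probe sets of other genes part in this way was not counted. The mean of both probe sets gave -0.85. What sets the probe sets apart was not tested, since probe-level data were not used here.

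**Figure D2:**
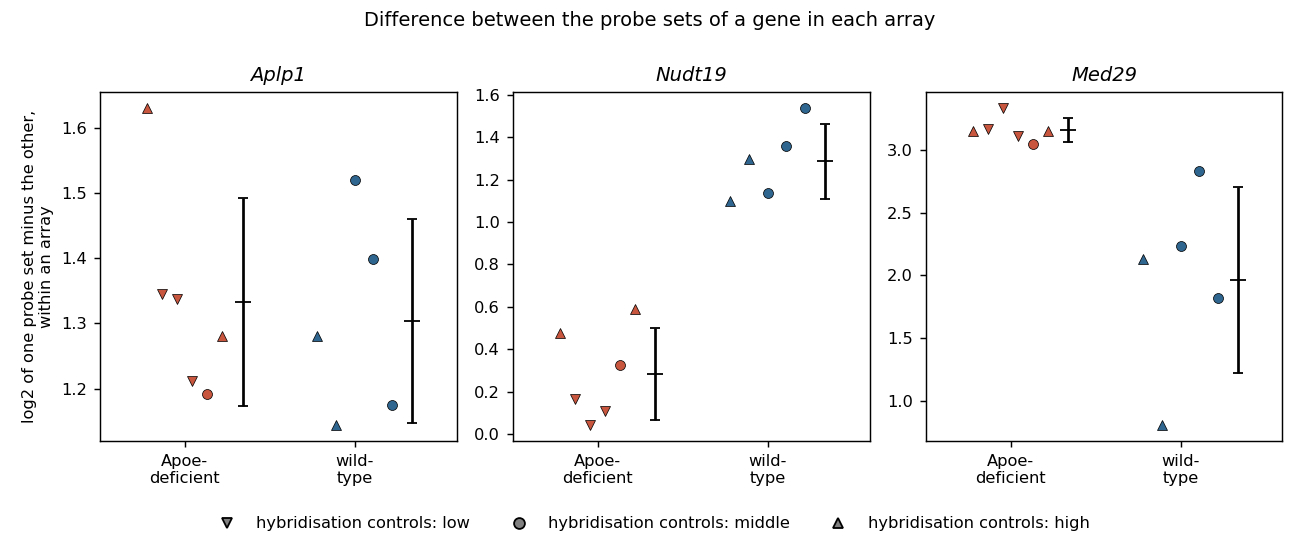
Log2 value of the representative probe set minus that of the other probe set (y axis) within each array for the 3 genes with 2 probe sets, Apoe-deficient left and wild-type right, with mean ± SD. The groups overlap for Aplp1 and are apart for Nudt19 (0.04 to 0.59 in Apoe-deficient against 1.10 to 1.54 in wild-type arrays); the Med29 values have no usable size, since its second probe set exceeds the filter value in 0 of 11 arrays.

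Cyp2s1 encodes a cytochrome P450 that is induced through the aryl hydrocarbon receptor and acts on retinoids and lipid peroxides. Its signal ran from 150 to 198.9 (median 181.95) in Apoe-deficient ganglia, against 332.1, 222.4, 232.8, 290.5 and 289.8 in wild-type ganglia. The groups did not overlap, but the gap was narrow at 0.11 on the log2 scale. Cyp2s1 differed by -0.58 (SE 0.13) with all arrays, and by -0.51 (SE 0.16) without the 3 low-level arrays, where its call was lost (limma adjusted p = 0.300). It was also lost in 6 of the 11 fits without 1 array, namely those lacking Apoe-deficient replicate 2, 3 or 4, or else wild-type replicate 1, 4 or 5, and over all 11 such fits the difference ran from -0.64 to -0.51. Of 19 other retinoid and xenobiotic genes 0 passed in the limma fit and 4 had an unadjusted p below 0.05, with a median of 0.00. Ahr, the receptor itself, differed by 0.44 (SE 0.17, adjusted p = 0.178) and Cyp2j6, a fatty acid epoxygenase, by 0.42 (SE 0.17, adjusted p = 0.198). The chromosome 7 cytochromes Cyp2f2 (-0.71, SE 0.47) and Cyp2e1 (-0.69, SE 0.48) had wide errors.

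Aplp1 encodes a member of the amyloid precursor protein family found mainly in neurons. Its representative probe set ran from 2755.8 to 4116.1 (median 3235.2) in Apoe-deficient ganglia, against 5088.6, 5606.7, 4815.8, 4219.1 and 4636.1 in wild-type ganglia. The groups did not overlap in deposited signal and overlapped slightly after normalisation. Aplp1 differed by -0.51 (SE 0.11). The second probe set gave nearly the same, -0.54 (SE 0.14), with signals of 1081.6 to 1711.5 in Apoe-deficient and 1503.7 to 2406.9 in wild-type ganglia and an overlap between groups. Deviations from the group means of the 2 probe sets had r = 0.77 over 11 arrays. Of the 8 genes Aplp1 had the highest ratio, 1.89, between the difference in the low-level arrays and that in the other Apoe-deficient arrays. The 3 low-level arrays lay -0.67 from the wild-type mean and the other 3 Apoe-deficient arrays -0.35, of which 1 lay below all wild-type arrays. Its call was lost in 7 of 11 fits without 1 array (those lacking Apoe-deficient replicate 2, 3 or 4, or else wild-type replicate 1, 2, 3 or 5). Of 18 other genes of the amyloid precursor family and its processing 0 passed in the limma fit and 5 had an unadjusted p below 0.05, with a median of -0.16. Aph1a, a gamma-secretase subunit (-0.64, SE 0.19, adjusted p = 0.097), and the apelin receptor gene Aplnr (0.78, SE 0.24, adjusted p = 0.110), which stands on the list although it is not known to process amyloid precursor protein, had the smallest p. The paralogue Aplp2, on chromosome 9, differed by -0.21 (adjusted p = 0.201). On chromosome 7, the adaptor gene Apbb1 differed by -0.25, Apba2, another adaptor gene, by -0.33 and the gamma-secretase subunit gene Psenen by -0.12.

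**Figure D3:**
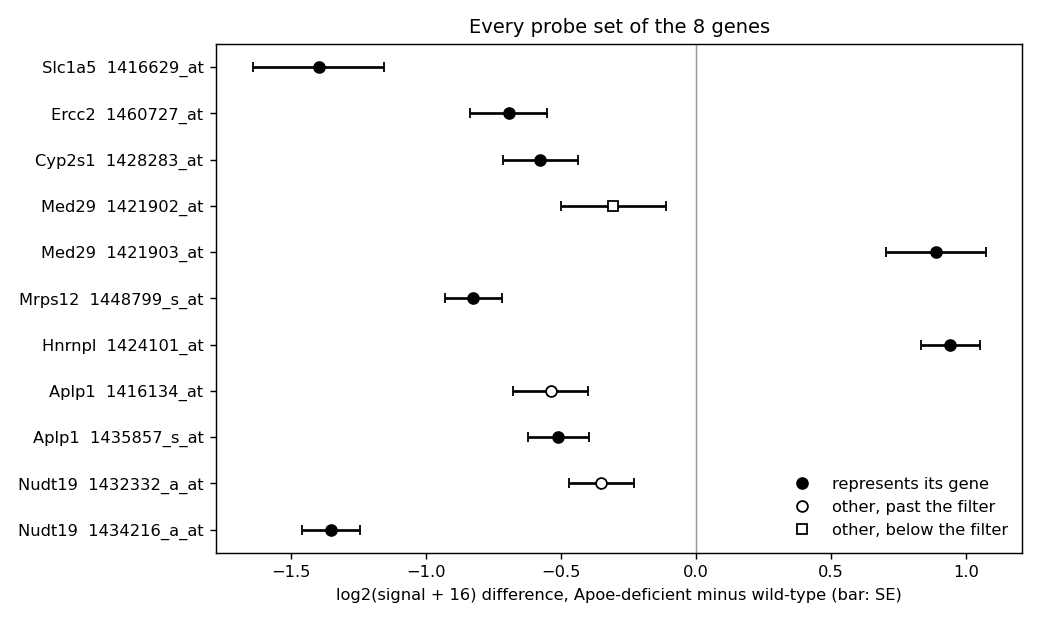
Log2(signal + 16) difference, Apoe-deficient minus wild-type (x axis, bars are SE), for all 11 probe sets of the 8 genes in the order of the genes along the chromosome. Filled symbols represent their gene; the Aplp1 pair coincides, the Nudt19 pair differs in size (-1.35 and -0.35) and the Med29 pair in sign (0.89 and -0.31).

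Mrps12, Hnrnpl and Nudt19 were the 3 genes past the threshold in both fits that set the low-level arrays aside, one leaving them out and the other taking the control level as a blocking term. With the block their differences were -0.66, 0.90 and -1.22. Both fits reuse arrays by which the genes had been chosen, so passing them is not independent support. Within the high level 0 of the 7 genes tested passed in limma, 6 having an unadjusted p below 0.05. The share of all genes with such a p within the high level was not counted. The 5 genes other than Mrps12, Hnrnpl and Nudt19 kept their sign and lost their call in both of the first settings. This left Slc1a5 at -1.31, Med29 at 0.82, Ercc2 at -0.73, Cyp2s1 at -0.52 and Aplp1 at -0.37 with the block. The 3 Apoe-deficient arrays outside the low level lay beyond all wild-type arrays in each gene except Aplp1, where 1 of the 3 did. These arrays took part in choosing the genes, so that is a description and no support. The share of all genes in which these 3 arrays lay beyond all wild-type arrays was not counted.

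**Figure D4:**
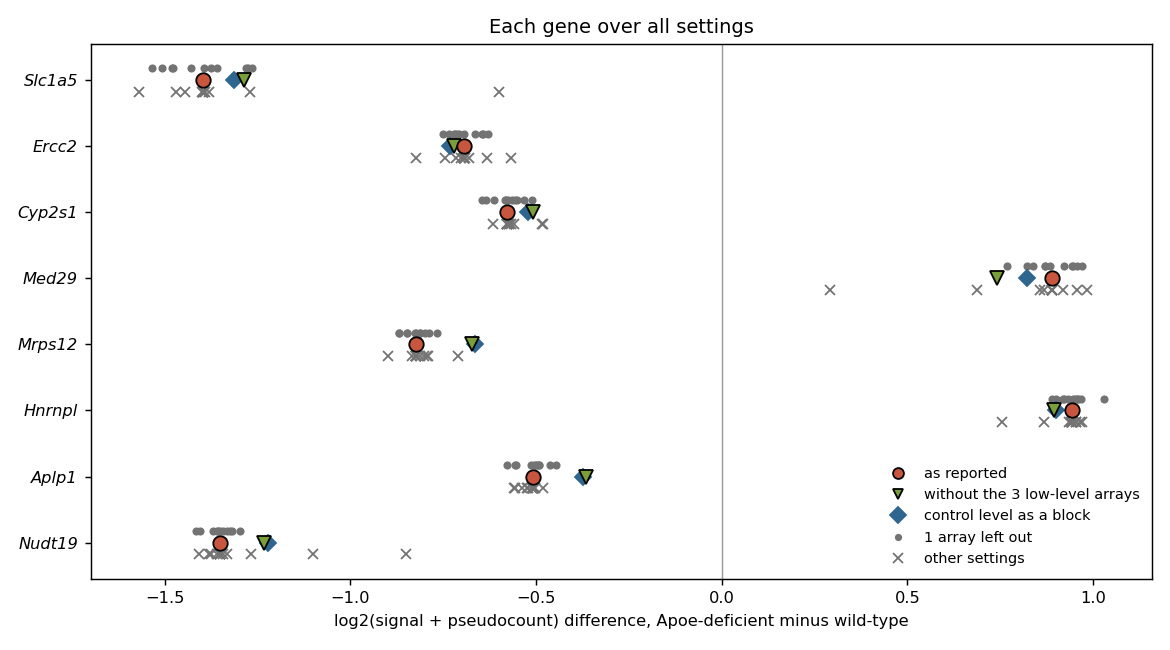
Log2 difference, Apoe-deficient minus wild-type (x axis), of each gene as reported and under every other setting, with single arrays left out as dots. No value crosses 0; Med29 comes closest to it, at 0.29 for the mean of its probe sets.

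With genotype set aside, the 8 genes showed no common direction from array to array. Deviations from the group means gave 12 of 28 gene pairs a Pearson r above 0, with a median of -0.07 over 11 arrays. Mrps12 and Aplp1 had the highest r (0.85) and Cyp2s1 and Hnrnpl the lowest (-0.83). The tested genes most like each member by this measure were Lrg1 (r = 0.95) and Ermp1 (0.93) for Slc1a5, Sema6d (0.95) and Wrnip1 (0.85) for Ercc2, Bcar3 (0.90) and Tm7sf3 (0.89) for Cyp2s1, and 2310030G06Rik (0.91) and Mettl8 (0.91) for Med29. For Mrps12 they were Slc9a3r2 (0.95) and Rgl2 (0.95), for Hnrnpl Tet1 (0.87) and Pstk (0.86), for Nudt19 Htr3a (0.91) and Trib2 (0.90), and for Aplp1 Arsa (0.97) and Jph3 (0.96). Of these 16 genes only Pstk lies on chromosome 7, and 0 passed the threshold between the genotypes in the limma fit. They are the highest coefficients among all genes tested, over arrays that share control level and tissue make-up.

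Counting tested genes along the chromosome from Apoe, Slc1a5 stood at -25 and Ercc2 at -11, on one side. Cyp2s1 stood at 37, Med29 at 59, Mrps12 at 63, Hnrnpl at 67, Aplp1 at 87 and Nudt19 at 116 on the other. Of the 16 nearest tested neighbours, 1 on each side of every member, 0 passed the threshold in the limma fit and 11 were below 0. Among all genes tested 1.93% passed and 57% were below 0, and on chromosome 7 66.8% were below 0. The neighbours had a median of -0.16, with values from -0.71 (Cyp2f2, after Cyp2s1) to 0.55 (Cep89, before Nudt19). Ech1, which encodes a dienoyl-CoA isomerase and follows Hnrnpl, differed by -0.60 (SE 0.15, adjusted p = 0.053), opposite to Hnrnpl, and Sirt2, before it, by -0.02. Axl, a receptor tyrosine kinase gene before Cyp2s1, differed by 0.41 (SE 0.11, adjusted p = 0.064), opposite to Cyp2s1, with groups that did not overlap. Around Slc1a5, Ap2s1 differed by 0.18 and Strn4 by -0.28. Around Nudt19, Uri1 differed by 0.11. Ckm, after Ercc2, differed by -0.24, Zfp36, before Med29, by 0.33, Lrfn1, before Mrps12, by -0.19, Hcst, before Aplp1, by -0.50, and Lin37, after it, by -0.13.

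On the whole of chromosome 7, 19 of 603 tested genes were past the threshold, 3.15%, against 1.84% on the other chromosomes. With Apoe, 11 were lower (1.82%) and 8 higher (1.33%), while elsewhere 0.588% of genes were lower and 1.25% higher. Without Apoe itself chromosome 7 had 18 of 602 genes past the threshold (2.99%), 10 lower and 8 higher. Chromosome 6 had 3.26% past it, and chromosome 9 had 1.68% lower, so chromosome 7 was not alone in these shares. The members were chosen from these calls, so the counts are descriptions. The chromosome count became 12, 8 and 9 without Apoe-deficient replicates 2, 3 and 4, 11, 9 and 8 without wild-type replicates 1, 2 and 5, and 5 without the 3 low-level arrays.

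Between Slc1a5 and Nudt19 2 other genes passed the threshold. Tyrobp, a signalling adaptor of myeloid cells, was higher (0.78, SE 0.16, adjusted p = 0.025), in a set of arrays where 9 of 13 macrophage markers, Tyrobp among them, rose. Fxyd7, a regulator of the sodium pump in neurons, was lower (-0.85, SE 0.19, adjusted p = 0.038). Farther along lay Myh14 (-0.60), Stard5 (-0.47) and Tub (-0.65), which were lower, and Ctsc (1.24), Eed (0.59), Pycard (1.05), Ifitm2 (0.77) and Ifitm1 (0.87), which were higher in the same fit. Ctsc is a lysosomal protease gene, Pycard an inflammasome adaptor gene, Eed a Polycomb gene and Ifitm1 and Ifitm2 interferon-inducible genes.

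**Figure D5:**
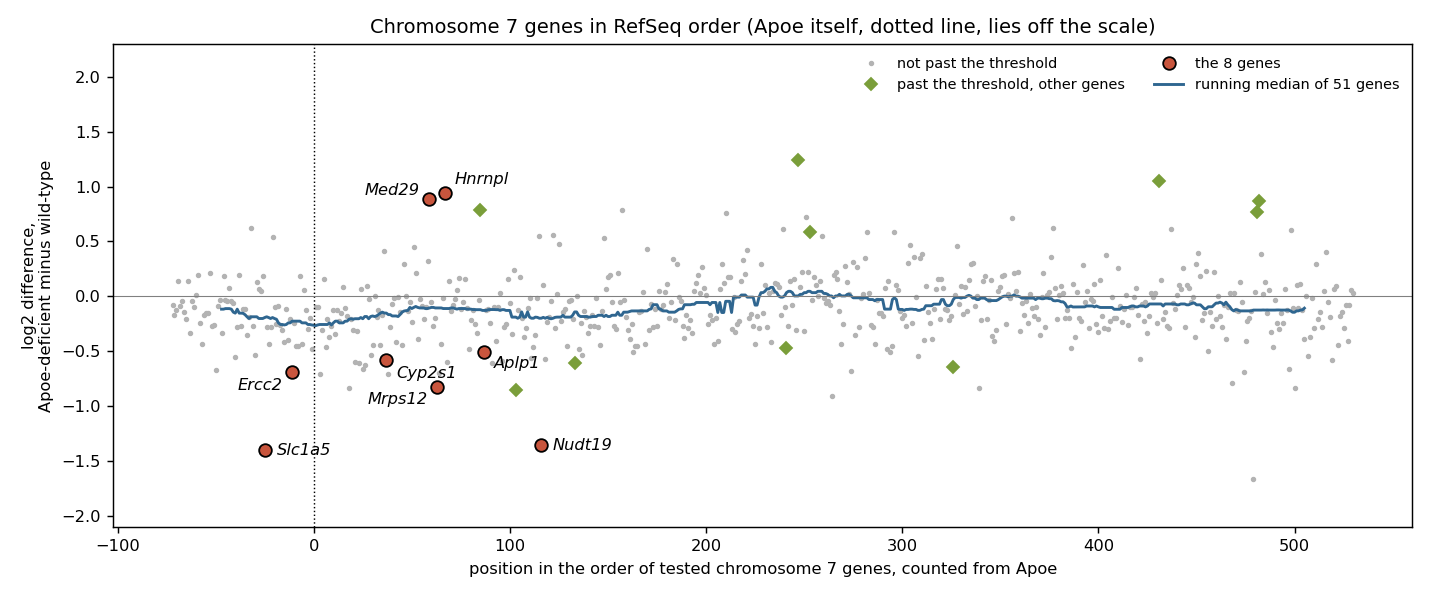
Log2 difference, Apoe-deficient minus wild-type (y axis), of the tested chromosome 7 genes in RefSeq order, counted from Apoe (x axis). The line is the running median of 51 genes; the 8 genes stand from -25 to 116, and the running median is below 0 around Apoe.

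A small shift ran through the genes around Apoe. Of the 50 tested genes within 25 places of it, Slc1a5 and Ercc2 among them, 44 had a difference below 0, and the median was -0.26. On all of chromosome 7 66.8% of genes were below 0 and among all genes 57%, with medians of -0.12 and -0.04. Chromosome 15 had a median of -0.11, so a median this low was not particular to chromosome 7. For the 97 non-member genes within 50 places, the median deviation of an array, minus that of all genes, was -0.17, -0.17 and -0.24 in Apoe-deficient replicates 2, 3 and 4, and 0.04, 0.06 and 0.05 in Apoe-deficient replicates 1, 5 and 6. In wild-type arrays it was 0.13, 0.16, 0.07, -0.02 and 0.05. In this window the 3 Apoe-deficient arrays outside the low level lay within the range of the wild-type arrays, but replicates 1 and 6 lay below both wild-type arrays of their own high level (0.13 and 0.16). For the non-member genes within 25 places the values were 0.0018, 0.16 and 0.04 in Apoe-deficient replicates 1, 5 and 6, against 0.03 to 0.20 in wild-type arrays, so replicate 1 lay below all wild-type arrays there. The median log2 difference of these 97 genes, minus that of all genes, was -0.15 with all arrays, -0.03 without the 3 low-level arrays and -0.08 within the high level. The same 3 arrays were also apart on the first principal component of all genes, at -19.5, -25.9 and -21.2 against -4.83 to -2.50 in the other Apoe-deficient and 0.24 to 23.8 in the wild-type arrays.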

How the data were processed

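Biotin-labelled RNA of 11 samples was hybridised to 1 Affymetrix array each. The authors deposited 1 linear intensity (signal) per probe set and array, made with GCOS 1.4 per the submitters' processing notes. How GCOS scaled the signals is not stated there. Median signals were 162.25 to 187.65 per array. Of 22690 rows 64 were controls. Of the other 22626 probe sets 20380 carried 1 gene symbol, 691 several and 1555 none in the platform annotation, and 20351 of the single-gene ones matched RefSeq (GRCm38.p6), used for chromosome and gene order.

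Signals were taken to log2(signal + 16), quantile normalised, filtered (above the 40th percentile in at least 5 arrays), reduced to each gene's single-gene probe set of highest mean, and fitted with limma 3.58.1 in R 4.3.3 (intensity trend, two-sided, Benjamini-Hochberg over 8433 genes, threshold 0.05). Second probe sets came from an unfiltered fit of all probe sets. The fit was tested on simulated data. Figures were drawn with matplotlib 3.10.9. Members and gene lists were chosen with earlier results of these data known. Genes named by rule were Apoe, the members, chromosome 7 genes past the threshold, nearest neighbours, the 2 genes of highest likeness, and in each list those past the threshold or else the 2 of smallest p with partners on chromosome 7. Aplp2 was added after values were seen. Alternatives covered normalisation, pseudocount, filter, probe set rule, variance model, weights, blocks and left-out arrays.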

Additional observations from a re-analysis of the deposited data

Results flagged for a closer look

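Among 24 groups of values (12 probe sets in 2 genotypes) 1 array stood apart from its group by the gap to its nearest neighbour. It was the Apoe value of Apoe-deficient replicate 3, at 4.64 on the log2 scale (signal 7.2), where the other Apoe-deficient arrays ran from 7.09 to 8.18. Chance alone marks about 1 in 20 groups by this criterion. No value of the 8 chromosome 7 genes was marked.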

How the results depend on the processing

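Of 212 member values under the alternatives 172 kept direction and call, 40 kept direction and lost the call and 0 reversed. Members past the threshold numbered 8, and 5 to 8 without 1 array (5 without the Apoe-deficient replicate 3, and 5 without the wild-type replicate 5), 5 of 5 tested with the stricter filter, where Ercc2, Cyp2s1 and Med29 were not tested, 3 with the control level as a block, 3 without the 3 low-level arrays, and 0 in limma within the high level (6 of 7 at an unadjusted p below 0.05, Med29 not passing the filter there). How many of all genes had such an unadjusted p within the high level was not counted. Chromosome 7 genes past the threshold numbered 19, and 8 to 24 without 1 array, 51 with array weights, 6 with that block, 5 without the low-level arrays and 1 within the high level. Over all genes (1.93% past the threshold in the fit reported) the counts were 75 to 267 without 1 array, and 668, 45, 24 and 4 under the other settings in that order. Among the fits without 1 array, Apoe-deficient replicates 2, 3 and 4 gave 106, 75 and 100 and wild-type replicates 1, 2, 3 and 5 gave 80, 77, 96 and 77, while Apoe-deficient replicate 1 gave 260 and wild-type replicate 4 gave 267. In a fit with a replicate block 6 members, 17 chromosome 7 genes and 185 genes passed, Cyp2s1 and Aplp1 losing their calls. The same-number correlations were 0.15, -0.18, -0.03, 0.00 and -0.18. Whether the numbers mark a pairing cannot be told from these values. Apoe kept its call throughout (-7.08 to -6.17). The cause was not tested. The shift near Apoe, a result added after seeing the data, ranged from -0.18 to -0.03. Probe sets near the floor, such as the second of Med29, give no usable size.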
